A study of Rattus norvegicus with 24 samples.

Results

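A set of 9 genes that make, load, recapture and degrade monoamines was followed in the nucleus accumbens (NAc, core and shell) of male Sprague Dawley rats: Th, Ddc, Gch1, Gchfr, Qdpr, Slc18a2, Slc6a3, Maoa and Maob. They were picked by name for their place in the pathway, with earlier results of these data known, and are 9 of the 32545 genes in the expression table. RNA-seq was available for 24 libraries in 6 groups of 4 rats, all adult males that were 8 weeks old on arrival. In the injection experiment, rats received 5 intraperitoneal injections of 250 µg/kg lipopolysaccharide (LPS, a bacterial cell wall component that triggers an immune response) or saline over about 2 weeks, and then heroin rising from 1 to 5 mg/kg, or saline, once a day for 5 days. The groups were Saline-Saline, Saline-Heroin, LPS-Saline and LPS-Heroin, whose tissue was taken 1 hour after the last injection by the labels. The study's methods describe a short locomotor session after that injection for all these rats, and death within 1 hour of the session's end. In the self-administration (SA) experiment, Heroin-SA rats gave themselves intravenous heroin (0.075 mg/kg per infusion) and Saline-SA rats saline through a jugular catheter, 6 hours a day in 10 sessions, and tissue was taken straight after the last session. SA rats had catheter surgery, were housed singly and lived on a reversed light cycle. Injected rats were pair-housed on a normal cycle and had the locomotor session. The experiment and its setting therefore cannot be told apart in any comparison between the 4 injected groups and the 2 SA groups. The labels place 1 week between LPS and heroin, and the study's methods give a shorter gap. The methods also state more sequenced samples per group than the 4 that are labelled and deposited.

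Dopamine is made from tyrosine by tyrosine hydroxylase (Th), which needs the cofactor tetrahydrobiopterin, and by aromatic L-amino acid decarboxylase (Ddc). Gch1 makes the first intermediate of that cofactor, Gchfr binds Gch1 and passes on feedback from the cofactor's level, and Qdpr returns the used cofactor to its active form. Slc18a2 (VMAT2) loads monoamines into vesicles, Slc6a3 (DAT) takes dopamine back into the terminal, and the monoamine oxidases Maoa and Maob of the outer mitochondrial membrane break monoamines down. Dopamine terminals fill the NAc, but their cell bodies lie in the midbrain, so most Th, Slc18a2 and Slc6a3 mRNA sits outside the dissected tissue, whereas Maoa, Maob and Qdpr are also made by glia and local neurons.

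In the coordinates of the deposited table (genome build rn6), Th (ENSRNOG00000020410) lies on chromosome 1 from 216073031 to 216080287 on the minus strand, and Ddc (ENSRNOG00000004327) on chromosome 14 from 91905919 to 91996774 on the minus strand. Gch1 (ENSRNOG00000011039) runs from 23934585 to 23969011 on the minus strand of chromosome 15. Gchfr (ENSRNOG00000012290) runs from 110975923 to 110979957 on the plus strand of chromosome 3, with a counted length of only 631 bases. Qdpr (ENSRNOG00000003253) spans 70164650 to 70178284 on the plus strand of chromosome 14. Slc18a2 (ENSRNOG00000008890) and Slc6a3 (ENSRNOG00000017302) are also on chromosome 1, from 280423079 to 280457148 on the plus strand and from 32321580 to 32363983 on the minus strand. The oxidase genes are neighbours on chromosome X, Maob (ENSRNOG00000029778) from 6430594 to 6533534 on the plus strand and Maoa (ENSRNOG00000002848) from 6554698 to 6620722 on the minus strand, so that their 3′ ends face each other across 21163 bases. No other gene of the table overlaps any of the 9.

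The windows just before the RefSeq starts of 4 members are printed for the genes on which the results turn: Gchfr and Ddc, which were lower in the heroin-injected groups, and Th and Slc18a2, each of which was high in 1 library. They are the 120 bases before the start in build GRCr8, 5′ to 3′ on the gene's strand: chr3:126611772-126611891 (plus) for Gchfr, chr14:90675627-90675746 (minus) for Ddc, chr1:207508219-207508338 (minus) for Th and chr1:268399901-268400020 (plus) for Slc18a2. Capitals mark ATTGG, the reverse complement of CCAAT, in Gchfr and Ddc, and the cyclic AMP response element TGACGTCA in Th and Slc18a2.
Gchfr: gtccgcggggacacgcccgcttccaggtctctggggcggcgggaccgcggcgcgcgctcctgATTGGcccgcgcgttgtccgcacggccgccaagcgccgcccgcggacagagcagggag
Ddc: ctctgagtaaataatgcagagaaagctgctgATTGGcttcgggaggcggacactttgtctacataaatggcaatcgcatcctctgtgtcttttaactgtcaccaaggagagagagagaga
Th: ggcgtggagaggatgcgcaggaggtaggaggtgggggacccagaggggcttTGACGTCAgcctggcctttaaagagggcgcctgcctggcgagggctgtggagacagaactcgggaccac
Slc18a2: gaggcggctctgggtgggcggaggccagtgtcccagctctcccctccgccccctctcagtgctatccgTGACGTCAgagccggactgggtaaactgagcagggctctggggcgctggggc

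All 9 members matched the RefSeq promoter table, with 11 windows of 300 bases in all because Ddc has 3 starts; the Ddc window shown is the only one of its 3 that holds CCAAT or its reverse complement. Searched on both strands, TGACGTCA was in 2 of the 11 member windows and in 1.83% of all 33469 windows of that length, and CCAAT was in 7 of the 11 and in 37.5% of all windows. These are matches of letters only, and binding was not measured.

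Values are FPKM (fragments mapped to a gene, scaled to its length and to the library's mapped fragments), a level per length, so that genes can be set beside each other. Fold changes are differences of log2(FPKM + 0.1) from limma, fitted over every gene with a mean of at least 0.5 FPKM in the libraries compared, with the 95% confidence interval (CI) in brackets. A gene was called changed at an unadjusted p of at most 0.05 and a change of at least 1.3-fold. In the main fits of these comparisons the Benjamini-Hochberg adjusted p of limma was above 0.05 for every member. Across all genes limma gave 0 genes with an adjusted p under 0.05 in 10 of the 11 comparisons, with 607 to 1725 genes at an unadjusted p under 0.05. In those 10, limma-voom on the read counts also gave 0, and limma without the filter gave 0 to 7. For Heroin-SA against Saline-SA, 1 fit over all 24 libraries gave 69. A pseudocount of 1 gave 1 there, and leaving out Saline-SA replicates 3 and 4 gave 2. The exception among the 11, Saline-SA against Saline-Saline, had 3584. The exact permutation test of 4 against 4 libraries cannot go below p = 0.0286, which it reaches when the groups do not overlap. The median of all genes moved by less than 0.02 (log2) in each comparison.

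The libraries held 12312878 to 18850240 reads on genes, and the members ranged widely in how many of those reads they had. Qdpr was the most abundant member, with a mean of 197 FPKM and 2837 to 5265 reads per library. Maoa averaged 25.9 FPKM (583 to 1085 reads) and Maob 23.6 FPKM (594 to 1207 reads). Gchfr averaged 3.26 FPKM but rested on 12 to 73 reads because the gene is short, Ddc averaged 1.80 FPKM on 72 to 259 reads, and Th averaged 1.09 FPKM on 6 to 214 reads. Gch1 (0.591 FPKM, 3 to 30 reads), Slc18a2 (0.376 FPKM, 1 to 197 reads) and Slc6a3 (0.102 FPKM, 0 to 30 reads) were near the floor of what this depth can measure. Intervals and floors from reads cover counting error only.

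**Figure D1:**
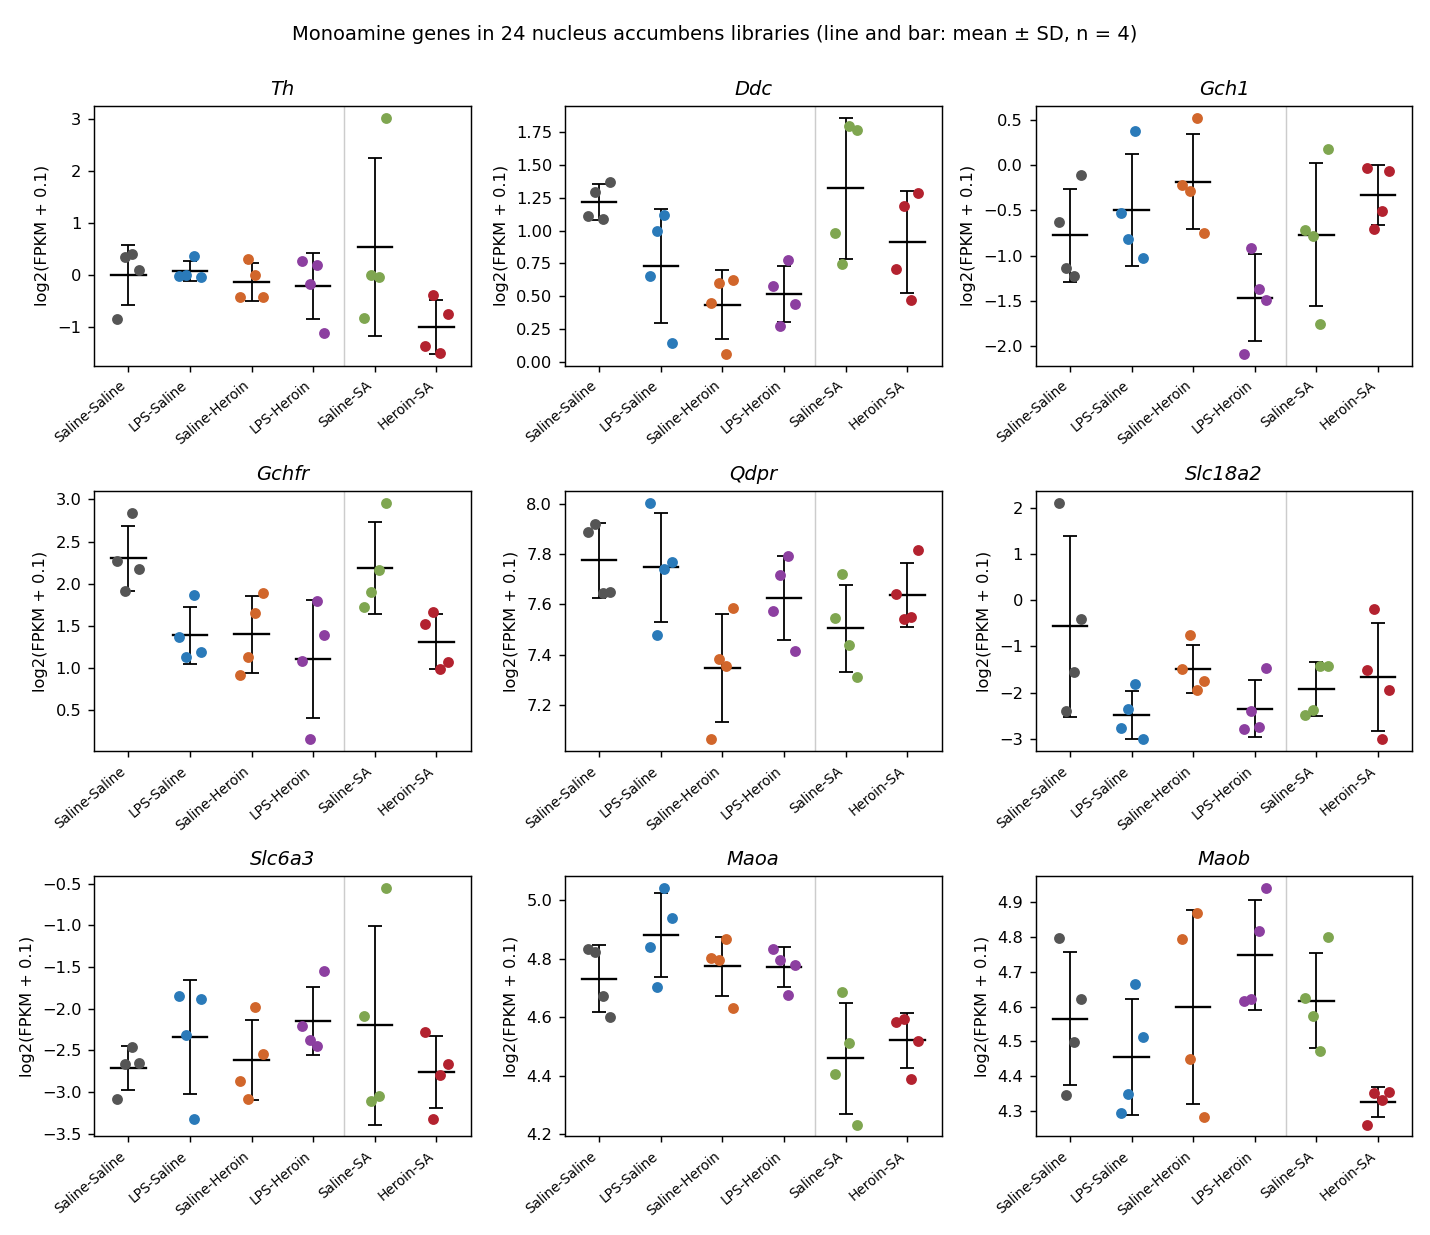
Level of each member in each library, as log2(FPKM + 0.1), by group, with points for the 4 libraries and a line and bar for the mean ± SD; the grey line parts the injected from the self-administration groups. Gchfr sits highest in Saline-Saline and Saline-SA, Th has 1 high library in Saline-SA (8.05 FPKM) and Slc18a2 has 1 in Saline-Saline (4.20 FPKM).

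The dissected tissue was striatal by its markers: the summed level of 10 medium spiny neuron genes (Drd1, Drd2, Ppp1r1b and others) was 1228 to 3266 FPKM. Of the 11 midbrain dopamine neuron markers other than the members, 8 were under the filter of 0.5 FPKM in each comparison with a saline control, and Foxa1 and Foxa2 were at 0 in all 24 libraries. The list summed to 20.7 to 46.3 FPKM per library, most of it from Slc10a4, which striatal cholinergic neurons also express (group means 13.3 to 23.3 FPKM), and Nr4a2, which cortical neurons and stimulated cells express too (7.92 to 17.7 FPKM). Of the serotonin and noradrenaline markers, Fev was at 0 in all libraries, and the plasma membrane carriers Slc6a4 and Slc6a2 did not exceed 0.0662 and 0.104 FPKM. The other 2 of the 4 serotonin markers, Tph2 and Htr1a, averaged at least 0.5 FPKM, and that list summed to 1.99 to 9.67 FPKM per library. The noradrenaline list summed to at most 0.375 FPKM. In bulk tissue, fewer cells of a type and less RNA per cell cannot be told apart.

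Gchfr, the regulatory partner of Gch1, was lower in every group that received LPS or heroin than in its saline control. Its 4 Saline-Saline libraries had 4.72, 3.66, 7.04 and 4.43 FPKM (mean 4.96 ± 1.45 SD, n = 4). The LPS-Saline libraries had 2.47, 2.08, 3.55 and 2.19 FPKM (2.57 ± 0.674), and the Saline-Heroin libraries had 1.79, 2.08, 3.04 and 3.62 FPKM (2.63 ± 0.848). The LPS-Heroin libraries had 2.02, 1.01, 3.38 and 2.52 FPKM (2.23 ± 0.988). No library of the 3 treated groups reached the lowest Saline-Saline library, but the margin was narrow, with 3.62 in Saline-Heroin replicate 4 against 3.66 in Saline-Saline replicate 2. Against Saline-Saline, the log2 fold change was -0.91 [-1.44, -0.39] in LPS-Saline (limma adjusted p = 0.661), -0.90 [-1.50, -0.31] in Saline-Heroin (adjusted p = 0.750) and -1.19 [-1.97, -0.42] in LPS-Heroin (adjusted p = 0.242). These 3 comparisons share the same 4 control libraries and are not independent of one another.

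The self-administration experiment has its own controls. There Saline-SA had 3.20, 3.64, 4.39 and 7.68 FPKM of Gchfr (4.73 ± 2.03) and Heroin-SA had 2.76, 3.06, 1.89 and 2.0 FPKM (2.43 ± 0.573), again with no overlap and with a narrow margin, 3.06 against 3.20. The log2 fold change was -0.88 [-1.51, -0.24] (limma adjusted p = 0.347), and without Saline-SA replicate 4, the highest library, it was -0.62 and still called. Mitochondrial reads made up 10.7%, 11.1%, 15.9% and 14.1% of the Saline-SA libraries, 10.0% to 11.8% of the Heroin-SA libraries and 6.82% to 9.10% of the injected ones, and Saline-SA replicates 3 and 4, with the high shares, had the most Gchfr. With both left out, a setting chosen after seeing the data, the Gchfr change was -0.50 [-1.09, 0.08] and was no longer called. The part of RNA quality in it was not tested. The change in Heroin-SA less the change in Saline-Heroin was 0.02 on the log2 scale [-0.84, 0.89], an interval that leaves room for a sizeable difference either way. The saline groups of the 2 experiments had similar means, 4.96 and 4.73 FPKM, with a log2 fold change of -0.11 [-0.76, 0.54].

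Within the injection experiment, adding LPS to heroin moved Gchfr by a log2 fold change of -0.29 [-1.11, 0.53] against Saline-Heroin, and adding heroin to LPS moved it by -0.28 [-1.05, 0.49] against LPS-Saline. Neither passed the test. Over the 16 injected libraries the average LPS effect was -0.60 [-1.09, -0.12] (limma adjusted p = 0.710) and the average heroin effect was -0.59 [-1.08, -0.11] (adjusted p = 0.581). The interaction was 0.62 [-0.35, 1.59] and was not called.

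Ddc, the decarboxylase that completes dopamine and serotonin synthesis, was lower in both groups injected with heroin. Saline-Saline had 2.07, 2.35, 2.03 and 2.49 FPKM (2.23 ± 0.223), the tightest of the 6 groups for this gene relative to its level. Saline-Heroin had 1.27, 1.42, 0.941 and 1.44 FPKM (1.27 ± 0.232) and LPS-Heroin had 1.39, 1.10, 1.61 and 1.26 FPKM (1.34 ± 0.215). All 8 heroin-injected libraries lay under all 4 Saline-Saline libraries. The log2 fold change was -0.78 [-1.21, -0.35] in Saline-Heroin (limma adjusted p = 0.750) and -0.70 [-1.10, -0.30] in LPS-Heroin (adjusted p = 0.220). Against the group that received LPS without heroin, the change in LPS-Heroin was -0.21 [-0.80, 0.37] and was not called.

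LPS-Saline lay between, with 1.48, 1.90, 2.07 and 1.01 FPKM of Ddc (1.61 ± 0.475) and a log2 fold change of -0.49 [-1.02, 0.04] that was not called (adjusted p = 0.746). It was called by limma-voom (-0.54) and without LPS-Saline replicate 3 (-0.62), so a lower Ddc was not confined to the heroin groups in every fit. The average heroin effect over the 16 injected libraries was -0.50 [-0.83, -0.17] (limma adjusted p = 0.547). In the self-administration rats Ddc was spread widely, with 1.88, 1.58, 3.38 and 3.31 FPKM in Saline-SA (2.54 ± 0.941) and 1.53, 2.18, 1.29 and 2.34 FPKM in Heroin-SA (1.84 ± 0.504). The groups overlapped and the log2 fold change of -0.41 [-1.10, 0.28] was not called (adjusted p = 0.608). Saline-SA replicates 3 and 4 were also its highest libraries, and with both left out the change was 0.05 [-0.66, 0.76]. The heroin changes of the 2 experiments differed by 0.37 [-0.40, 1.14], which did not pass the test.

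Qdpr, the dihydropteridine reductase, was lower in Saline-Heroin than in Saline-Saline. Saline-Saline had 236.8, 242.3, 200.1 and 200.4 FPKM (mean 219.9 ± 22.8) and Saline-Heroin had 133.6, 166.8, 163.5 and 192.0 FPKM (164 ± 23.9), with no overlap. The log2 fold change was -0.43 [-0.69, -0.17] (limma adjusted p = 0.750). Without Saline-Heroin replicate 1, the lowest library, it was -0.33 and fell under the 1.3-fold limit. LPS-Saline, with 256.7, 178.0, 213.6 and 218.1 FPKM (217 ± 32.2), and LPS-Heroin, with 190.6, 210.5, 221.8 and 170.5 FPKM (198 ± 22.6), overlapped Saline-Saline, and their log2 fold changes of -0.03 [-0.29, 0.24] and -0.15 [-0.38, 0.08] were not called. LPS-Heroin was above Saline-Heroin by 0.28 [0.01, 0.55] (limma adjusted p = 1.00), which is under 1.3-fold.

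In the self-administration rats Qdpr was not lower with heroin. Saline-SA had 186.8, 211.2, 173.5 and 158.8 FPKM (183 ± 22.2) and Heroin-SA had 199.7, 186.3, 187.3 and 225.3 FPKM (199.7 ± 18.2), a log2 fold change of 0.13 [-0.10, 0.36]. The test of the difference between the self-administered and the injected heroin change gave 0.56 [0.22, 0.90] (limma adjusted p = 0.670). Oligodendrocyte markers moved with Qdpr. Over the 24 libraries, with group means taken off, Qdpr and the mean of 8 oligodendrocyte genes (Mbp, Mog and others) correlated at 0.76 (Pearson) and 0.72 (Spearman), a description of libraries that share their dissection. The summed level of the 8 genes was 4746 to 7347 FPKM in Saline-Saline and 3334 to 6614 FPKM in Saline-Heroin. In Saline-Heroin 1 of the 8, Opalin, was called lower (1.67% of all genes), with a list median of -0.36 (log2). Their part in the Qdpr result was not tested.

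Gch1, the first and usually limiting enzyme of cofactor synthesis, was at 0.135 to 1.34 FPKM, with 3 to 30 reads per library. Saline-Heroin had 0.761, 0.717, 1.34 and 0.495 FPKM (0.828 ± 0.359, n = 4) and LPS-Heroin had 0.135, 0.431, 0.287 and 0.257 FPKM (0.278 ± 0.121). The log2 fold change of LPS-Heroin against Saline-Heroin was -1.28 [-2.27, -0.29] (limma adjusted p = 1.00), but the gene passed the filter of 0.5 FPKM in this comparison only through Saline-Heroin, the group where it was high, and without Saline-Heroin replicate 3 it was not tested. Saline-Saline had 0.545, 0.356, 0.328 and 0.828 FPKM (0.514 ± 0.230) and LPS-Saline had 0.595, 0.466, 1.20 and 0.392 FPKM (0.663 ± 0.368), and the log2 fold change between them was 0.28 [-0.73, 1.28], which was not called. The interaction of LPS and heroin was -1.56 [-2.81, -0.30] (adjusted p = 0.992). In that fit too the gene drew on Saline-Heroin, where it was highest, to pass the filter. LPS-Heroin against Saline-Saline and against LPS-Saline was not tested in the main limma fits because the mean was under the filter. The exact permutation p was 0.114 and 0.0571. Without the filter, limma gave -0.69 against Saline-Saline (unadjusted p = 0.0978), which was not called. Against LPS-Saline it gave -0.97 (unadjusted p = 0.0395, adjusted p = 0.946), which was called. Saline-SA had 0.507, 0.480, 0.197 and 1.03 FPKM and Heroin-SA had 0.881, 0.512, 0.603 and 0.853 FPKM, a log2 fold change of 0.44 [-0.58, 1.47] that was not called.

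**Figure D2:**
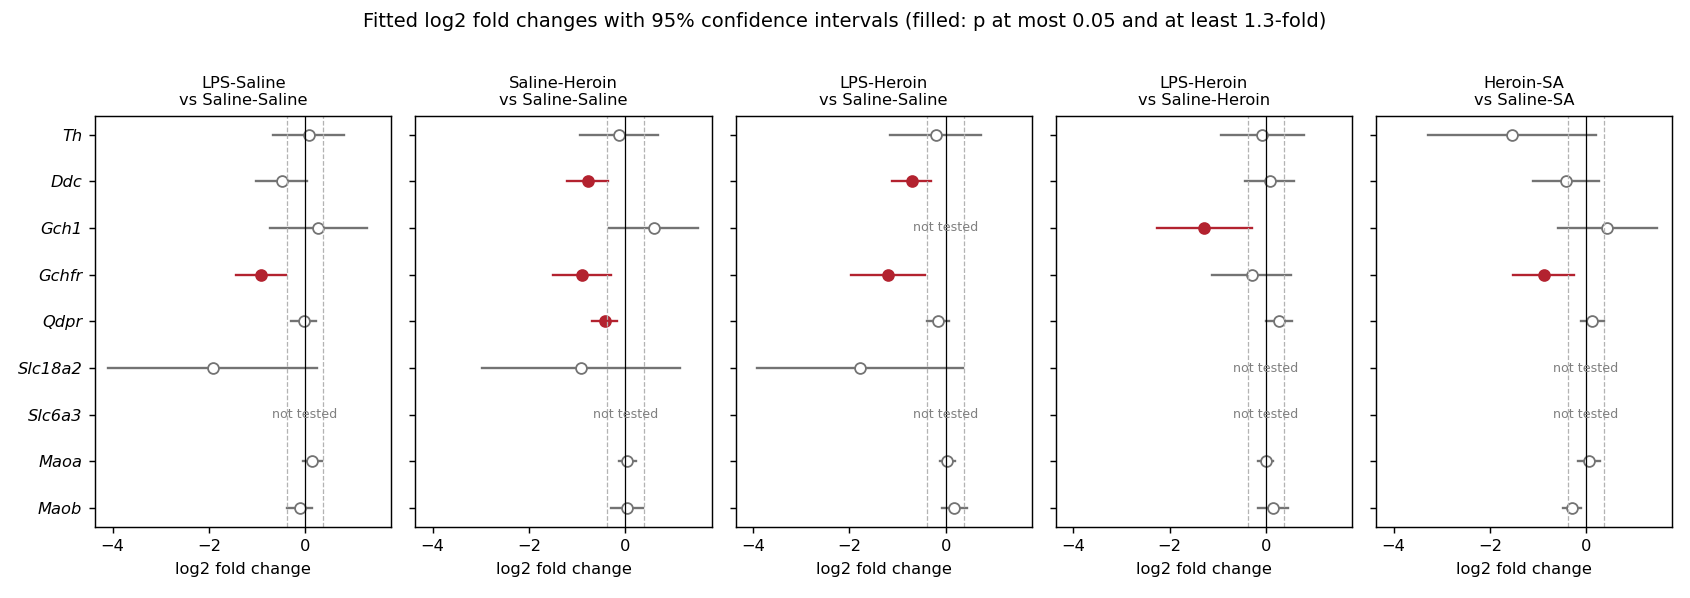
Log2 fold change of each member (points) with its 95% confidence interval (lines) in 5 comparisons; filled red points passed p of at most 0.05 and 1.3-fold, dashed lines mark 1.3-fold and "not tested" marks members under 0.5 FPKM. Gchfr was called in 4 of the 5 panels, at -0.91, -0.90, -1.19 and -0.88, and Maoa and Maob were called in none.

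Th was low in all groups but for 1 library. Saline-Saline had 0.457, 1.16, 1.22 and 0.965 FPKM, LPS-Saline 0.884, 0.900, 1.18 and 0.864 FPKM, Saline-Heroin 0.639, 1.13, 0.898 and 0.646 FPKM, and LPS-Heroin 1.10, 0.783, 1.05 and 0.360 FPKM. These 4 groups overlapped and no comparison among them was called, with log2 fold changes from Saline-Saline of 0.08 [-0.67, 0.82], -0.13 [-0.94, 0.67] and -0.21 [-1.15, 0.74]. Heroin-SA had 0.287, 0.665, 0.253 and 0.490 FPKM, and Saline-SA had 0.458, 0.898, 0.867 and 8.05 FPKM. The last value, Saline-SA replicate 4, rested on 214 reads, where no other library had more than 32. The log2 fold change of Heroin-SA against Saline-SA was -1.54 [-3.27, 0.20] (limma adjusted p = 0.479), and without that library it was -0.71 (adjusted p = 0.649).

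Saline-SA replicate 4 also stood apart in markers of olfactory bulb and islands of Calleja interneurons, some of which make dopamine. The mean level of that list of 6 genes was 4.26 (log2), the highest of the 24 libraries, with a summed level of 170.9 FPKM. Scgn was at 30.8 FPKM there against at most 6.04 elsewhere, and Calb2 (79.9 FPKM), Trh (23.0), Tshz1 (25.6) and Pax6 (6.68) were also high. Slc6a3 was at its highest in the same library, at 0.583 FPKM (30 reads). What brought these genes into that library was not tested.

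Slc18a2, the vesicular loader, was between 0.0250 and 0.782 FPKM in 23 libraries and at 4.20 FPKM (197 reads) in Saline-Saline replicate 1. The other Saline-Saline libraries had 0.0907, 0.238 and 0.655 FPKM. That library also had the highest choroid plexus level of the 24 (summed 332.0 FPKM, mostly Ttr at 318 FPKM). It had the next to highest levels of the hypothalamus and preoptic, septum and ventral forebrain, and oligodendrocyte lists. The same held for the olfactory bulb and islands of Calleja, astrocyte and serotonin neuron lists, while its medium spiny neuron level ranked 23 of 24. LPS-Saline had 0.0466, 0.0949, 0.186 and 0.0250 FPKM, Saline-Heroin 0.258, 0.494, 0.159 and 0.196 FPKM, and LPS-Heroin 0.0460, 0.0913, 0.0488 and 0.262 FPKM. The log2 fold changes from Saline-Saline were -1.92 [-4.08, 0.24], -0.92 [-2.98, 1.14] and -1.78 [-3.93, 0.37], and none was called. The self-administration groups lay within 0.0256 to 0.782 FPKM, and Heroin-SA against Saline-SA was under the filter. Slc18a2 passed the filter in the comparisons with Saline-Saline through replicate 1 of that group, without which it was not tested, so these fold changes rest on that library.

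**Figure D3:**
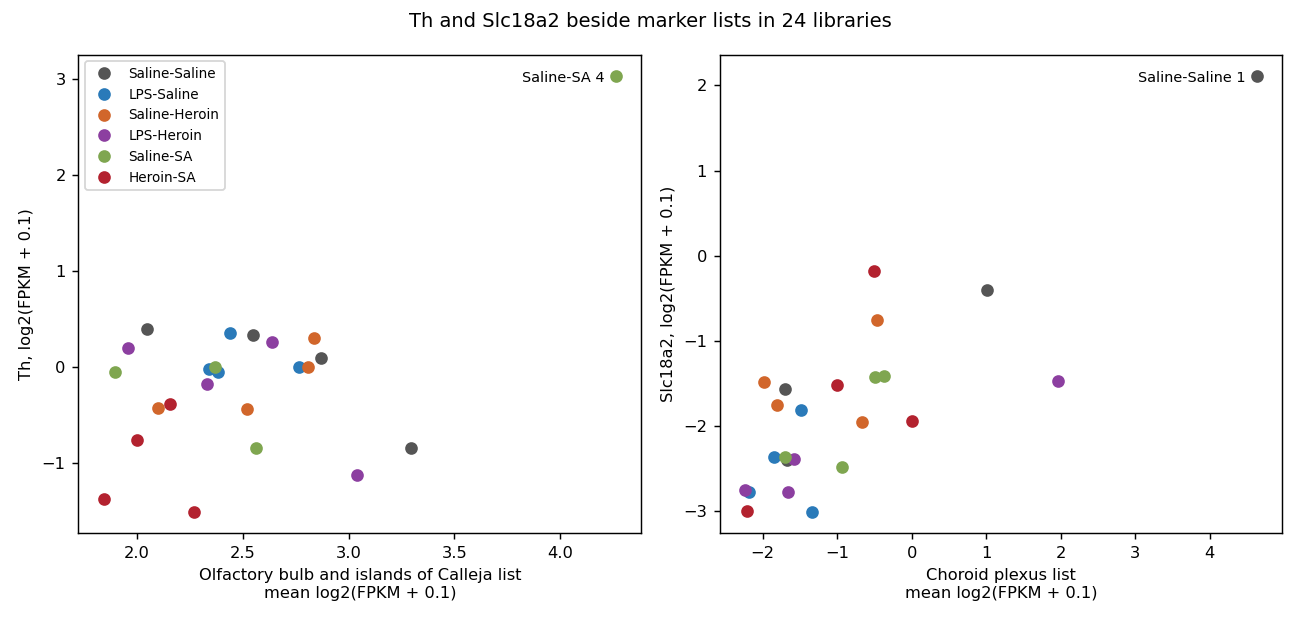
Th against the mean level of the olfactory bulb and islands of Calleja list (left) and Slc18a2 against the choroid plexus list (right), each point 1 of 24 libraries, coloured by group, all axes in log2(FPKM + 0.1). Saline-SA replicate 4 and Saline-Saline replicate 1 stand alone at the upper right of their panels, at 8.05 FPKM of Th and 4.20 FPKM of Slc18a2.

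Slc6a3, the dopamine transporter, had 0 to 13 reads in every library but Saline-SA replicate 4 and passed the filter in no comparison. Saline-Saline had 1, 3, 4 and 3 reads and LPS-Heroin had 6, 6, 4 and 13 reads. Their FPKM lay side by side (at most 0.0812 against at least 0.0831), with an exact permutation p of 0.0286. The share of all genes that part in this direction is not given here, and at these counts no fold is given. LPS-Saline had 9, 5, 0 and 8 reads, Saline-Heroin 2, 1, 8 and 3, and Heroin-SA 5, 0, 2 and 3.

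Maoa and Maob were at like levels, and neither was called in any comparison. Maoa had 28.4, 28.2, 25.4 and 24.1 FPKM in Saline-Saline, and its log2 fold change from that group was 0.15 [-0.05, 0.35] with LPS alone, 0.04 [-0.13, 0.22] with heroin alone and 0.04 [-0.12, 0.20] with both. These intervals leave out a change of 1.3-fold in either direction. Maoa differed between the experiments by less than the fold limit: Saline-SA had 21.1, 25.6, 22.7 and 18.7 FPKM, a log2 fold change of -0.27 [-0.51, -0.04] from Saline-Saline (limma adjusted p = 0.0901) that was not called, and Heroin-SA had 23.9, 24.03, 20.8 and 22.8 FPKM.

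Maob, in brain mainly an enzyme of astrocytes and serotonin neurons, was lower in Heroin-SA than in Saline-SA without reaching the fold limit. Saline-SA had 24.6, 23.7, 22.1 and 27.8 FPKM (24.5 ± 2.39) and Heroin-SA had 19.1, 20.3, 20.05 and 20.4 FPKM (19.9 ± 0.605), with no overlap. The log2 fold change was -0.29 [-0.47, -0.11] (limma adjusted p = 0.339). In the injected rats LPS-Heroin, with 24.4, 24.5, 28.1 and 30.6 FPKM, was above LPS-Saline, with 19.5, 20.3, 25.3 and 22.7 FPKM, by 0.29 [0.05, 0.54] (adjusted p = 0.977), also under 1.3-fold. With group means taken off, Maob and the mean of 8 astrocyte genes had a Pearson r of 0.68 over 24 libraries. The ratio of Maoa to Maob FPKM was 1.35 ± 0.0817 (SD, n = 4) in LPS-Saline, the highest of the 6 groups, and 0.911 ± 0.184 in Saline-SA, the lowest.

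Counted over members, 1 of 8 tested was called lower in LPS-Saline (Gchfr), where 1.15% of all genes tested were called lower. In Saline-Heroin 3 of 8 were called lower (Ddc, Gchfr and Qdpr), against 1.67% of all genes, and in LPS-Heroin 2 of 7 (Ddc and Gchfr), against 2.44%. In Heroin-SA 1 of 7 was called lower (Gchfr), against 2.41% of all genes, and in LPS-Heroin against Saline-Heroin 1 of 7 (Gch1), against 0.999%. In LPS-Heroin against LPS-Saline 0 of 6 were called by limma (2.29% of all genes; 1 member, Maob, had an unadjusted p under 0.05, and limma-voom also called 0). No member was called higher in any of these comparisons between groups. Groups that did not overlap, with the first one lower, were found for 1.77% of all genes in LPS-Saline, 1.49% in Saline-Heroin, 3.16% in LPS-Heroin and 3.24% in Heroin-SA, each against its control. The average LPS effect called 1 of 7 members lower (Gchfr; 0.834% of all genes), the average heroin effect 2 of 7 (Ddc and Gchfr; 1.38%) and the interaction 1 of 7 (Gch1; 1.05%). The difference between the self-administered and injected heroin changes called 1 of 8 higher (Qdpr; 2.64%). Between the saline groups of the 2 experiments 0 of 8 members were called by limma, where 22.7% of all genes were. Maoa and Qdpr had an unadjusted p under 0.05 there, and limma-voom also called 0. Over the alternative limma and limma-voom fits of that comparison, the adjusted p ranged from 0.0236 to 0.298 for Maoa and from 0.0305 to 0.428 for Qdpr. The Gch1 count in LPS-Heroin against Saline-Heroin comes from a gene that passed the filter through 1 group, as does Slc18a2 among the members tested against Saline-Saline. The Gch1 count in the interaction also drew on Saline-Heroin, where the gene was highest, to pass the filter. The median log2 fold change of the tested members was -0.07 in LPS-Saline (0.01 for all genes), -0.28 in Saline-Heroin (0.00), -0.21 in LPS-Heroin (0.00) and -0.29 in Heroin-SA (0.01), each against its control.

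In order of mean, Gchfr ran Saline-Saline, Saline-SA, Saline-Heroin, LPS-Saline, Heroin-SA, LPS-Heroin, and the only step larger than the SD of both its groups was the one from Saline-SA to Saline-Heroin. Ddc ran Saline-SA, Saline-Saline, Heroin-SA, LPS-Saline, LPS-Heroin, Saline-Heroin, with no neighbouring pair apart by more than the larger of its SDs. For Qdpr the order was Saline-Saline, LPS-Saline, Heroin-SA, LPS-Heroin, Saline-SA, Saline-Heroin, and for Maob LPS-Heroin, Saline-SA, Saline-Heroin, Saline-Saline, LPS-Saline, Heroin-SA, again with no step above the larger SD. For Maoa the 4 injected groups came first and the step from Saline-Saline to Heroin-SA was the only one where neighbouring groups did not overlap.

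Markers of other brain regions and cell types moved in some of the same comparisons. Among all genes tested, 2.44% were called lower in LPS-Heroin, 1.67% in Saline-Heroin, 1.15% in LPS-Saline and 2.41% in Heroin-SA. Called higher were 2.99% in LPS-Heroin, 1.4% in Saline-Heroin and 3.03% in Heroin-SA. Of 6 septum and ventral forebrain markers, 3 were called lower in LPS-Heroin against Saline-Saline (Lhx6, Gbx1 and Isl1), 2 in Saline-Heroin (Lhx6 and Gbx1) and 0 in LPS-Saline and in Heroin-SA against Saline-SA. The summed level of that list was 30.1 to 88.4 FPKM in Saline-Saline, 20.9 to 45.1 in LPS-Saline, 24.5 to 59.2 in Saline-Heroin, 19.97 to 38.8 in LPS-Heroin, 17.8 to 35.7 in Saline-SA and 18.8 to 23.9 in Heroin-SA. Of the 3 midbrain markers tested, 1 was called lower in LPS-Saline (Slc10a4, -0.58), 0 in Saline-Heroin and in Heroin-SA, and 2 in LPS-Heroin (Slc10a4 at -0.93 among them), with list medians of -0.47, -0.56, -0.49 and -0.84 (log2) in that order. Of the hypothalamus and preoptic markers, 1 of 5 was called lower in LPS-Saline (Gal) and 2 of 5 in LPS-Heroin (Oxt and Avp), and of the 6 olfactory bulb and islands of Calleja markers Trh was called lower in LPS-Saline and in LPS-Heroin, and Trh and Calb2 in Heroin-SA, with a list median of -0.77 there. All 5 matched cortical glutamatergic markers were called higher in LPS-Heroin (median 1.22, log2), and 0 of 5 in the other 3 comparisons with a saline control. Gchfr had a Pearson r of 0.26 with the septum list and Ddc had 0.37, over 24 libraries with group means taken off. These values describe spread within groups and not the differences between groups. Without Saline-Saline replicate 1, the Gchfr change was -0.92 with LPS alone, -0.91 with heroin alone and -1.20 with both, the Ddc changes in the 2 heroin groups were -0.82 and -0.74, and all remained called. That library ranked 2 of 24 on the septum list, and Saline-Saline replicate 4, which ranked 1, stayed in these fits. The part of dissection and of other cell types in these results was not tested.

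**Figure D4:**
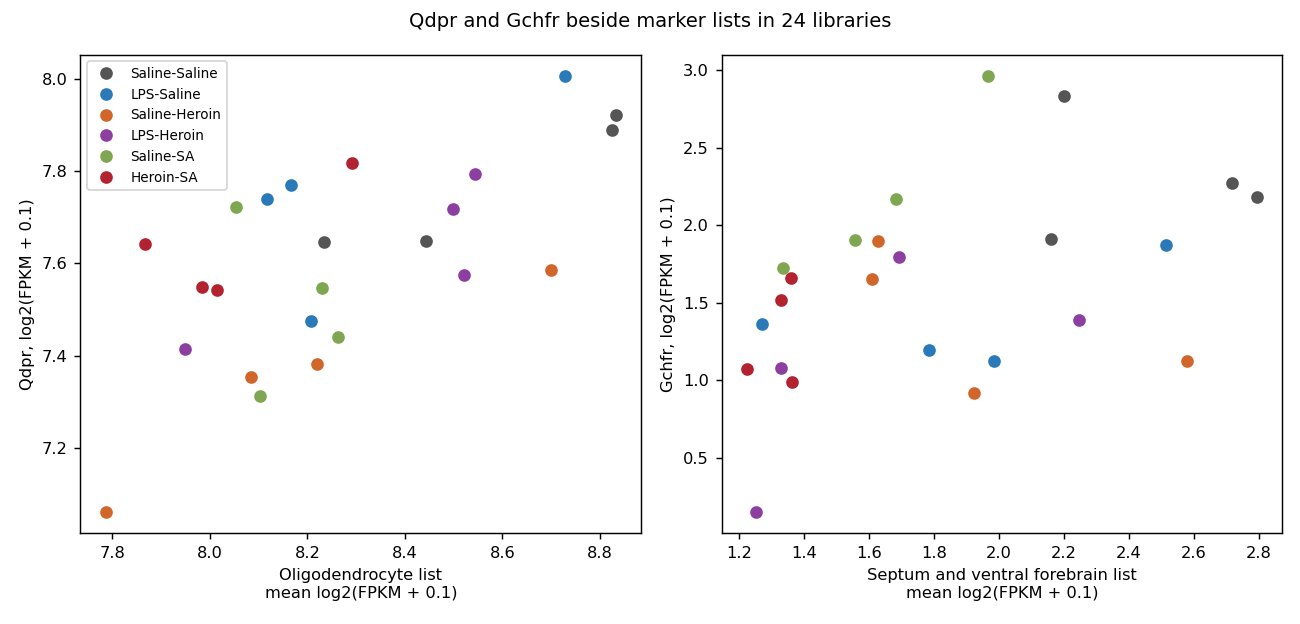
Qdpr against the oligodendrocyte list (left) and Gchfr against the septum and ventral forebrain list (right), each point 1 of 24 libraries, coloured by group, all axes in log2(FPKM + 0.1). Qdpr rises with its list (Pearson r 0.76 with group means taken off), and Gchfr much less so (0.26).

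Of 39 further genes of the pathway, 38 were found in the table and 28 were tested. In LPS-Saline 0 of 28 were called in either direction by limma or limma-voom (2.36% of all genes by limma), and 0 had an unadjusted p under 0.05. In Saline-Heroin 2 were called higher (1.4% of all genes) and 1 lower (1.67%). In LPS-Heroin 3 were higher (2.99% of all genes) and 2 lower (2.44%), and in Heroin-SA 0 were higher (3.03%) and 2 lower (2.41%). Slc29a4, the plasma membrane monoamine transporter PMAT, a low-affinity carrier, had 6.21, 7.26, 6.21 and 8.66 FPKM in Saline-Saline, 4.33, 6.95, 3.55 and 5.13 in Saline-Heroin and 3.32, 3.57, 3.73 and 5.53 in LPS-Heroin. Its log2 fold change was -0.53 [-0.99, -0.07] in Saline-Heroin (limma adjusted p = 0.750) and -0.81 [-1.22, -0.41] in LPS-Heroin (adjusted p = 0.191). Saline-SA had 5.63, 6.97, 8.56 and 11.1 FPKM and Heroin-SA had 5.01, 4.28, 4.09 and 4.43, with no overlap and a change of -0.80 [-1.24, -0.36] (adjusted p = 0.295).

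Pcbd1, the dehydratase that works beside Qdpr in regenerating the cofactor, was lower in Heroin-SA, at 10.9, 8.18, 10.1 and 8.02 FPKM, than in Saline-SA, at 12.8, 14.0, 19.3 and 17.8, by -0.77 [-1.12, -0.41] (limma adjusted p = 0.255). In LPS-Heroin it was lower than in Saline-Saline by -0.66 [-1.10, -0.21] (adjusted p = 0.264), and Pts, Spr and Pcbd2, counted with it among the genes of the cofactor, were not called in these comparisons. Genes called higher belonged to other steps. The synaptic SNARE protein gene Stx1a, whose product binds the dopamine transporter, was higher in Saline-Heroin by 0.60 [0.03, 1.17] (adjusted p = 0.750) and in LPS-Heroin by 0.86 [0.42, 1.31] (adjusted p = 0.198). Aldh1a1, an aldehyde dehydrogenase that clears the product of the oxidases, was higher in Saline-Heroin by 0.84 [0.02, 1.66] (adjusted p = 0.750) and in LPS-Heroin by 0.89 [0.03, 1.74] (adjusted p = 0.429). Stx1a is widely expressed in cortical neurons, whose markers were called higher in LPS-Heroin and not in Saline-Heroin. Their part in the Stx1a result was not tested.

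**Figure D5:**
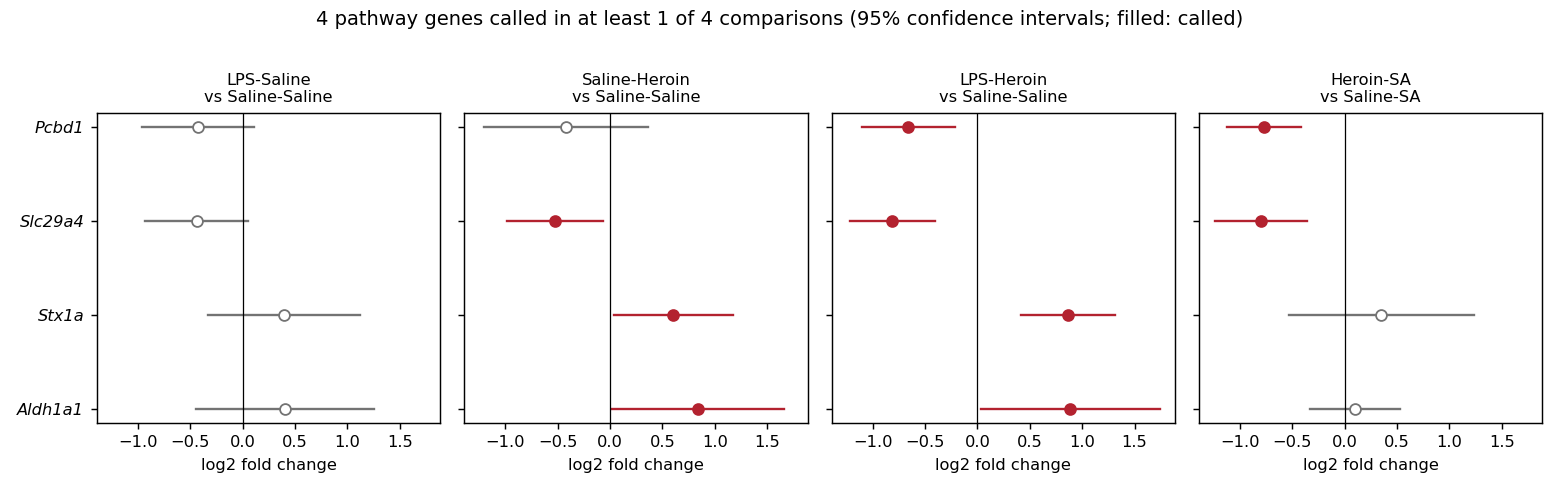
Log2 fold change (points) with 95% confidence interval (lines) of 4 further pathway genes (Pcbd1, Slc29a4, Stx1a and Aldh1a1), each called in at least 1 of 4 comparisons with a saline control; filled red points were called. Slc29a4 was lower in the 3 heroin panels, at -0.53, -0.81 and -0.80, and Stx1a and Aldh1a1 were called higher in Saline-Heroin and LPS-Heroin.

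The genes whose pattern over the 24 libraries was most like each member, with group means taken off, are given as a description; libraries share their dissection and depth. For Qdpr they were Lap3, Fez1 and Gpr37, with Pearson r of 0.93, 0.85 and 0.84. Lap3 lies on chromosome 14 from 70102814 to 70121797, 42852 bases from Qdpr with 1 annotated gene between them. For Ddc they were Smarcc2, Samd14 and Apeg3 (0.90, 0.81 and 0.78), and for Gchfr Polg2, Sept1 and Pxylp1 (0.80, 0.77 and 0.74). For Th they were Sipa1, Ablim3 and Scaf4 (0.79, 0.77 and 0.76), which fell to 0.62, 0.40 and 0.48 without the 2 libraries farthest from the median of Th, Saline-SA replicates 4 and 1. Those of Maoa were Mtmr6, Vps35 and Nudt5 (0.81, 0.77 and 0.77), those of Maob Emp2, P4ha2 and Pecr (0.79 each) and those of Gch1 E2f5, Xbp1 and Rcor1 (0.76, 0.76 and 0.74).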

How the data were processed

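RNA was extracted from NAc tissue, and poly-A, strand-specific libraries were made from 300 ng of total RNA with RNA integrity numbers of at least 7. Per the labels and the submitters' processing notes, the authors used fastp, HISAT2 and featureCounts with genome build rn6 (versions not given in the sources used here) and deposited FPKM per gene for 24 libraries. The labels give 4 rats per group. Sample columns that were not used: 0. The 9 members and the gene lists were chosen with earlier results of these data known.

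From the deposited FPKM, log2(FPKM + 0.1) was fitted with limma-trend (limma 3.58.1, R 4.3.3) on the libraries of each of 11 comparisons, over genes with a mean of at least 0.5 FPKM, without covariates, and p-values were adjusted (Benjamini-Hochberg) over all genes tested. Exact permutation tests of single members were two-sided. A step of FPKM per gene gave whole reads for 100% of values (tolerance 0.01), with 12312878 to 18850240 reads on genes per library; the reads served for depth and for limma-voom. Alternatives were pseudocounts of 1 and 0.01, no filter, a filter of 1 FPKM, quantile normalization, 1 fit over 24 libraries, limma-voom, a replicate block and leaving out each library, and, added after seeing the data, leaving out Saline-SA replicates 3 and 4. The fit was tested on simulated data. Promoter windows came from RefSeq (GRCr8). Named were all members, pathway genes past the call (at most 3 per comparison by p), the 3 genes most like each member (mean of at least 1 FPKM), and markers of the lists described; Pcbd1 in LPS-Heroin was added after its value was seen. Some genes of these lists are counted but not reported here by name.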

Additional observations from a re-analysis of the deposited data

Results flagged for a closer look

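A member's library was picked out where its gap to the nearest of its group's other 3 made up nearly all of the group's range, which chance gives in about 1 of 20 groups; 54 groups were examined and 3 were picked out, against 2.7 by chance. Th was at 8.05 FPKM in Saline-SA replicate 4, where the other 3 libraries were at 0.898 FPKM or less. Slc18a2 was at 4.20 FPKM in Saline-Saline replicate 1, against at most 0.655 FPKM in the other 3. Th was at 1.18 FPKM in LPS-Saline replicate 3, within the range of the Saline-Saline libraries. Tests of a difference between effects picked out 2 members. The LPS by heroin interaction of Gch1 was -1.56 (log2), for a gene that drew on Saline-Heroin, where it was highest, to pass the filter. For Qdpr, the change in Heroin-SA less the change in Saline-Heroin was 0.56 (log2).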

How the results depend on the processing

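The members were few, so a change of 1 call moves each count. Gchfr against Saline-Saline was called in each treated group under every alternative run and without each library in turn. Gchfr in Heroin-SA lost its call (-0.50, log2) with Saline-SA replicates 3 and 4 both left out, a setting chosen after seeing the data, and kept it under the others. Of 13 called member results, 143 refits without 1 library and 104 other alternatives kept the direction; the call was lost in 1 refit (Qdpr in Saline-Heroin without replicate 1) and 2 others (that of Gchfr, and the average heroin effect on Ddc with a pseudocount of 1). Gch1 dropped out where its mean fell under the filter. Of 67 results that were not called, 12 refits and 3 other alternatives made a call.

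The number of members called in LPS-Saline against Saline-Saline was 1, and 2 with limma-voom, which added Ddc at -0.54. In LPS-Heroin against LPS-Saline it was 0, and 1 with no filter, which added Gch1 at -0.97, or with 1 fit over all 24 libraries. In LPS-Heroin against Saline-Heroin it was 1, and 0 with a filter of 1 FPKM. In Heroin-SA against Saline-SA it was 1, and 2 with 1 fit over all libraries, which added Th at -1.54, and 0 with Saline-SA replicates 3 and 4 left out. That setting moved the difference between the heroin changes from 1 member to 2, adding Ddc at 0.83. The average LPS effect had 1, and 2 with no filter, which added Slc18a2 at -1.39. The average heroin effect had 2, and 1 with a pseudocount of 1. The interaction had 1, and 0 with a filter of 1 FPKM. Leaving out 1 library gave 1 to 2 members in LPS-Saline, 2 to 3 in Saline-Heroin and in LPS-Heroin, 0 to 1 in LPS-Heroin against Saline-Heroin, and 1 to 2 in Heroin-SA, the LPS effect, the interaction and the difference between the heroin changes. Beyond the fewer genes tested under a filter, the cause was not tested.

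The labels do not say whether rats with the same replicate number share anything else. Correlations of same-numbered libraries ran from -0.158 to 0.174. In LPS-Saline against Saline-Saline 3 of the 4 libraries were most like their own number, and in Heroin-SA against Saline-SA 0 were. A replicate block moved the genes called from 357 to 480 in the first comparison and from 817 to 756 in the second. With the replicate block the counts were 1 in LPS-Saline, 3 in Saline-Heroin, 2 in LPS-Heroin and 1 in Heroin-SA, and the block changed no count of members called.

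Gch1, Slc18a2 and Slc6a3 had few reads, and differences in them were hard to detect at this depth.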
